A study of Selenicereus undatus with 4 samples.

Results

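The genes described here are the unigenes of pitaya that carry nitrogen from nitrate into amino acids and move nitrate, ammonium and amino acids across membranes. They were chosen by words in the annotation (nitrate, nitrite, NRT1, ammonium transporter, glutamine synthetase, glutamate synthase, glutamate dehydrogenase, asparagine synthetase, and names of amino acid transporters and permeases). Of the 11051 genes listed for the comparison of the NL and L2 stages, 66 carried such a word. No expression value was used to choose them, but every listed gene had already been called differentially expressed by the authors on these same libraries. A pass in a test below is therefore no independent evidence of a change, and each count of passes is read against the share of all listed genes that passed.

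Both stages were red-fleshed pitaya of the cultivar 'Jindu No.1', grown as 1-year-old plants through a winter in which short days keep this long-day plant from flowering. The NL plants received no supplementary light and did not flower, whereas the L2 plants were lit at night and were taken 1 week after their flower buds had appeared. RNA came from 2 cm of stem around the thorn seat, the areole from which pitaya flowers grow, and each of the 3 libraries of a stage was a biological replicate that mixed several plants. Lighting, bud development and with it the sampled tissue changed together between NL and L2, so their parts cannot be told apart. The other 2 stages of the series (L0 and L1) were not analysed here.

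Plants reduce nitrate to nitrite with nitrate reductase in the cytosol and nitrite to ammonium with nitrite reductase in the plastid. Glutamine synthetase then binds ammonium to glutamate, and glutamate synthase turns the glutamine formed into glutamate, while glutamate dehydrogenase can release ammonium from glutamate and asparagine synthetase makes asparagine, a form in which nitrogen is stored and moved. Nitrate is carried by the NRT1/PTR family (NPF) and by the NRT2 transporters, ammonium by the AMT transporters, and amino acids by amino acid permeases (AAP), lysine histidine transporters (LHT), cationic amino acid transporters (CAT) and vacuolar carriers.

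Expression was given as RPKM, reads scaled to the length of the unigene and to the total reads of the library, so levels may be compared between genes. The NL libraries held 3860701 to 5269237 reads and the L2 libraries 5803177 to 7533457, so that 1 read on a unigene of 1000 nt was worth 0.190 to 0.259 RPKM in NL libraries and 0.133 to 0.172 RPKM in L2 libraries. Among all listed genes, 20 annotated for chlorophyll a-b binding proteins or the Rubisco small chain were listed, all lower in L2, with a summed level of 3767 to 4652 RPKM across NL libraries and 647 to 1544 RPKM across L2 libraries (1 of the 20 without reads in L2). Of 29 cyclin and histone genes, 24 were higher in L2, and their sum was 184 to 233 RPKM across NL libraries and 478 to 665 RPKM across L2 libraries. The annotation of 12 genes held APETALA, AGAMOUS, SEPALLATA, PISTILLATA, DEFICIENS, GLOBOSA or LEAFY, and 11 of these genes were higher in L2. These words also match AGAMOUS-like names, so the 12 genes need not all be floral identity genes. Their sums were 18.7 to 32.0 RPKM across NL libraries and 182 to 275 RPKM across L2 libraries, with no reads for 3 of them in NL. Green tissue markers, dividing tissue markers and the genes with floral names thus moved with the stages, and their part in the changes of the nitrogen genes was not tested. In bulk tissue, fewer cells of a type and less RNA per cell cannot be told apart.

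The 66 nitrogen genes took a smaller part of the libraries in L2 than in NL. They held 0.628%, 0.682% and 0.595% of all reads in the NL libraries and 0.284%, 0.330% and 0.306% in the L2 libraries, so the stages did not overlap. This rested on the most abundant pair, Unigene0048717 (nitrate reductase) and Unigene0043046 (an amino acid permease). The other 64 genes held 0.213%, 0.227% and 0.224% of the reads in NL and 0.231%, 0.267% and 0.249% in L2. The NL libraries summed to 795 ± 42.2 RPKM over these genes and the L2 libraries to 1001 ± 68.7 RPKM. This log2 change of 0.33 became -0.74 with DESeq2's size factors. The stages were compared with limma, a linear model on log2(RPKM + 0.1) with p-values adjusted over all listed genes (Benjamini-Hochberg). Of the 66, 31 rose and 34 fell at an adjusted p of at most 0.05, the exception being Unigene0044571, an NPF gene described below. Of all listed genes 99.3% passed, 63.0% higher in L2 and 36.3% lower. NL and L2 libraries were fully apart for 62 of the 66, against 97.6% of all listed genes. The median log2 change was -1.09 over the 66 genes and 1.43 over all listed genes. The authors kept only genes with a log2 ratio of 1 or more in either direction. Of the 66, 32 had a higher and 34 a lower mean in L2. Their median thus lies between the least lowered genes, Unigene0050351 (-1.03) and Unigene0033803 (-1.15). It reflects the near-even split and the edge of that threshold, and is not a typical change.

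The split between rises and falls depended on how the libraries were scaled. The count models edgeR and DESeq2 were run on the reads recovered from the RPKM values, each with library factors that set the bulk of the genes equal. With the TMM factors of edgeR, 23 of the nitrogen genes rose and 34 fell, against 38.6% and 36.6% of all listed genes. With the size factors of DESeq2, 19 rose and 33 fell, against 25.1% and 36.4%. These factors lowered L2 against NL by 0.85 and 1.08 on the log2 scale, so that the median over all listed genes became 0.37 with DESeq2's factors, and they were themselves set from called genes alone. None of the 66 genes changed direction under either tool. In edgeR 8 of the rises lost their call, and in DESeq2 12 of the rises and 1 of the falls, and each is given with its adjusted p where the gene is described.

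**Figure D1:**
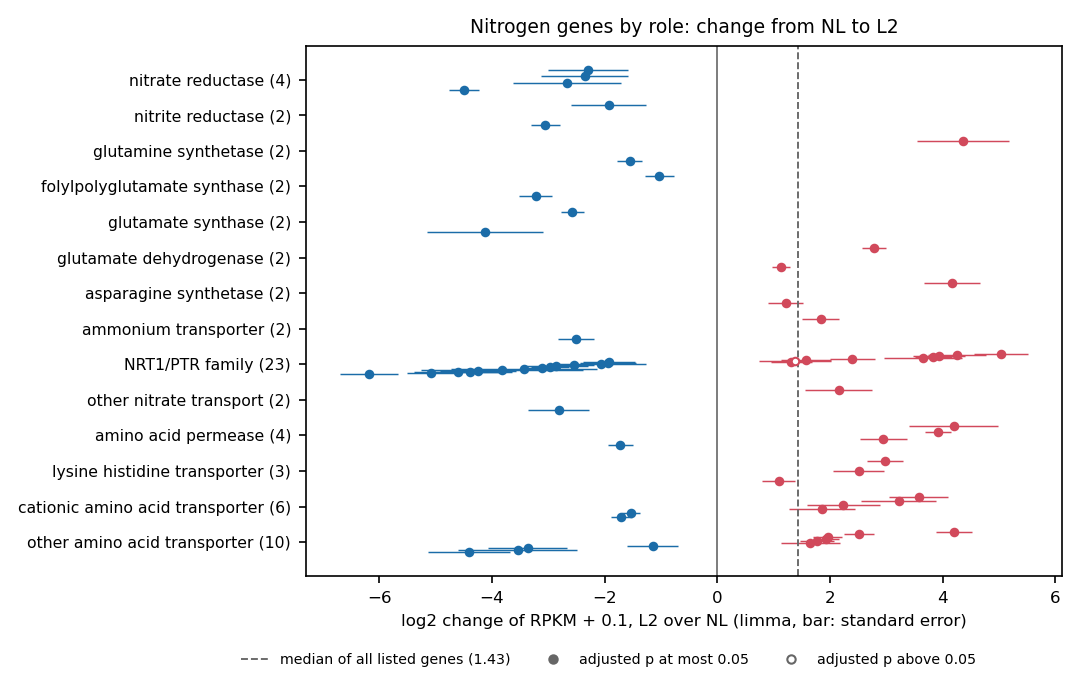
Log2 change from NL to L2 of log2(RPKM + 0.1) for each of the 66 genes (points; bars are standard errors from limma), grouped by role, with the number of genes of each role in brackets. Blue points are lower and red points higher in L2, and the open point did not pass. All genes for nitrate reductase, nitrite reductase and glutamate synthase lie left of 0, all genes for glutamate dehydrogenase, asparagine synthetase and lysine histidine transporters lie right of it, and genes without reads in a stage are drawn at the value that the added 0.1 RPKM gives.

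Nitrate reductase, nitrite reductase and glutamate synthase were down-regulated in L2, whereas glutamine synthetase, described below, had 1 unigene lower and 1 higher. All 8 unigenes for nitrate reductase, nitrite reductase and glutamate synthase fell in limma, in edgeR and in DESeq2. The background of genes lower in L2 was 36.3% in limma, 36.6% in edgeR and 36.4% in DESeq2. Summed over their unigenes, nitrate reductase fell from 850 ± 76.2 to 41.6 ± 16.1 RPKM (SD, n = 3 per stage), nitrite reductase from 76.5 ± 17.0 to 9.52 ± 2.75 RPKM and glutamate synthase from 67.6 ± 4.53 to 11.1 ± 2.19 RPKM. The green tissue markers fell over the same stages, as given above.

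A single unigene, Unigene0048717, carried most of the nitrate reductase signal. Its levels were 805, 918 and 777 RPKM in the NL libraries and 36.9, 25.3 and 53.0 RPKM in the L2 libraries. The lowest NL library was more than 10 times the highest L2 library, and the gene moved from rank 27 to rank 1255 of the 11051 listed genes by mean RPKM. The mean was 21.7-fold lower in L2 (log2 change -4.50, SE 0.27, adjusted p = 3.45e-05 in limma), and this unigene made 98.0% of the nitrate reductase sum in NL and 92.2% in L2.

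The other 3 nitrate reductase unigenes were weakly expressed and rested on few libraries. Unigene0024258, annotated as nitrate reductase but with a symbol of another Arabidopsis locus (At4g08330), had 3.81, 10.5 and 13.3 RPKM in NL and 0.655, 1.06 and 4.67 RPKM in L2. Its stages overlapped (log2 change -2.35, SE 0.77, adjusted p = 0.0181), and the pass was lost without NL replicate 2 or 3 or L2 replicate 1 or 2, with adjusted p values of 0.0632 to 0.0838. Without L2 replicate 3 its log2 change was -3.14. Unigene0036626 had 9.52, 4.37 and 1.66 RPKM in NL and 1.16, 0.431 and 0.861 RPKM in L2. It was 6.34-fold lower in L2 (adjusted p = 0.0145, but 0.0557 without L2 replicate 2), and its log2 change of -2.29 became -1.70 without NL replicate 1 and -2.93 without NL replicate 3. Unigene0000031 had 25 reads in NL and 4 in L2, at 3.03, 3.89 and 0.474 RPKM against 0, 0.431 and 0.430 RPKM. Its log2 change was -2.66 (SE 0.96, adjusted p = 0.0264), with adjusted p values of 0.0828, 0.0876 and 0.110 without NL replicate 1, NL replicate 2 and L2 replicate 1, and changes of -1.86 without L2 replicate 1 and -3.54 without NL replicate 3.

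Nitrite reductase, which reduces nitrite with electrons from ferredoxin, followed with a smaller fall. The main unigene, Unigene0030243, had 71.9, 88.4 and 57.7 RPKM in NL and 7.28, 7.23 and 11.8 RPKM in L2. No L2 library came near the lowest NL library, and the mean was 8.28-fold lower (log2 change -3.05, SE 0.26, adjusted p = 6.13e-05). Unigene0034189 had 5.99, 4.29 and 1.14 RPKM in NL and 0.733, 0.635 and 0.872 RPKM in L2. Its stages were separated only narrowly, by NL replicate 3. The log2 change of -1.93 (adjusted p = 0.0229) did not pass when any library except NL replicate 3 was left out (adjusted p 0.0501 to 0.0767) and was -2.62 without NL replicate 3. Within each library, the sum of nitrate reductase was 10.6, 10.1 and 13.5 times that of nitrite reductase in NL and 4.83, 3.46 and 4.65 times in L2. Such a ratio does not depend on the scaling of the libraries, and its values did not overlap between the stages.

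Glutamate synthase fell as well. The ferredoxin-dependent enzyme of the chloroplast, Unigene0052210, with a unigene of 7175 nt, had 69.6, 61.7 and 58.9 RPKM in NL and 8.79, 13.1 and 10.1 RPKM in L2. The mean was 5.94-fold lower in L2 (log2 change -2.58, SE 0.20, adjusted p = 5.56e-05). A short unigene of 542 nt, Unigene0055510, had 2.85, 5.26 and 4.55 RPKM in NL, no reads in L2 replicates 1 and 2 and 1.27 RPKM in L2 replicate 3. Its log2 change was -4.13 (SE 1.03, adjusted p = 0.00564), or -3.50 without L2 replicate 1 or 2 and -5.39 without L2 replicate 3.

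The glutamine synthetase unigenes went in opposite directions. Unigene0026755, annotated as the leaf isozyme, which acts in the chloroplast, had 80.6, 93.8 and 78.7 RPKM in NL and 20.8, 33.9 and 33.1 RPKM in L2, 2.88-fold lower (log2 change -1.55, SE 0.22, adjusted p = 4.51e-04). Unigene0016923, annotated as cytosolic isozyme 1-1, had no reads, 0.867 and 0.318 RPKM in NL and 6.44, 7.35 and 7.06 RPKM in L2. Its mean was 17.6-fold higher in L2 on 158 reads against 6 (log2 change 4.36, SE 0.82, adjusted p = 0.00155; 3.47 without NL replicate 1 and 5.11 without NL replicate 2). The cytosolic isozyme made up 0%, 0.916% and 0.402% of the listed glutamine synthetase RPKM in the NL libraries and 23.6%, 17.8% and 17.6% in the L2 libraries. The leaf isozyme thus remained the more abundant of the pair in every library of both stages.

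Glutamate dehydrogenase and asparagine synthetase were up-regulated in limma, with 4 of 4 unigenes higher against a background of 63.0%. Their smaller changes did not hold under the other scalings, where 2 of the 4 passed in edgeR (background 38.6%) and 2 of the 4 in DESeq2 (25.1%). Unigene0033729, a glutamate dehydrogenase B, was the most abundant, with 51.5, 65.9 and 63.5 RPKM in NL and 127, 135 and 131 RPKM in L2. All L2 libraries were above all NL libraries, and the mean was 2.17-fold higher (log2 change 1.12, SE 0.16, adjusted p = 4.48e-04), but the adjusted p was 0.249 in edgeR and 0.871 in DESeq2, where the log2 change was 0.04. The second glutamate dehydrogenase B, Unigene0031866, had 6.57, 8.17 and 5.32 RPKM in NL and 51.6, 45.2 and 41.5 RPKM in L2. It rose 6.90-fold (log2 change 2.78, SE 0.22, adjusted p = 5.62e-05) and also passed in edgeR (1.43e-05) and DESeq2 (7.41e-09). Its part of the glutamate dehydrogenase sum was 11.3%, 11.03% and 7.73% in NL and 28.9%, 25.1% and 24.1% in L2.

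Asparagine synthetase transfers the amide of glutamine to aspartate. Unigene0009435 had 3.67, 4.92 and 3.52 RPKM in NL and 7.0, 11.7 and 10.1 RPKM in L2, 2.38-fold higher in the mean (log2 change 1.21, SE 0.31, adjusted p = 0.00676, but 0.273 in edgeR and 0.680 in DESeq2). Unigene0034946 had no reads in any NL library and 1.10, 3.08 and 1.42 RPKM in L2, on 75 reads. Against a floor of 3 reads over the NL stage it was at least 18.5-fold higher in L2 (adjusted p = 1.87e-04).

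Set against each other within a library, the enzymes changed their order. In NL the nitrate reductase sum was 14.1, 12.7 and 11.5 times the glutamate dehydrogenase sum, and in L2 it was 0.216, 0.151 and 0.343 times that sum. For glutamate synthase over glutamate dehydrogenase the ratios were 1.25, 0.904 and 0.922 in NL and 0.0491, 0.0729 and 0.0661 in L2. In NL nitrate reductase was thus the most abundant of these enzymes, and in L2 glutamate dehydrogenase was, at 177 ± 4.35 RPKM against 67.0 ± 8.12 RPKM in NL (SD, n = 3).

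**Figure D2:**
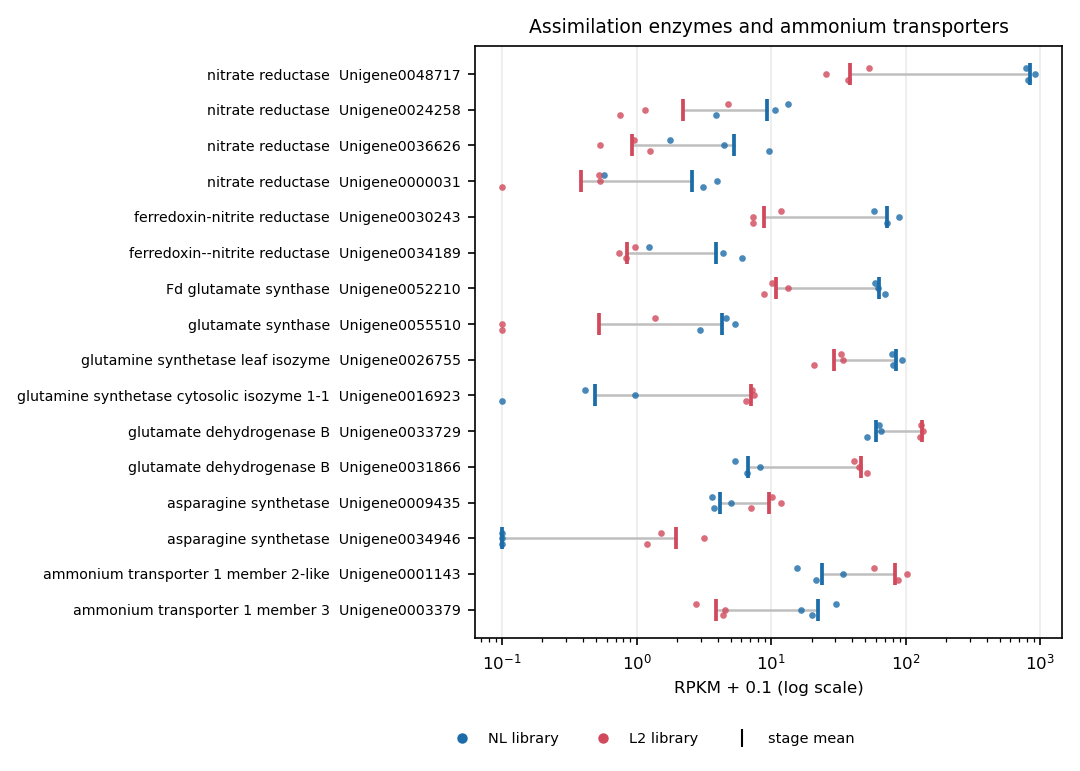
RPKM + 0.1 on a log axis for the assimilation enzymes and ammonium transporters, with 1 point per library (NL blue, L2 red), the mean of each stage as a vertical tick and a grey line between the means. Unigene0048717 for nitrate reductase runs from 833 RPKM in NL to 38.4 RPKM in L2, while both glutamate dehydrogenase unigenes lie higher in L2 and the AMT unigenes cross.

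The words of the rule also caught 2 unigenes for folylpolyglutamate synthase, whose name contains glutamate synthase but which adds glutamate tails to folates. Both fell, Unigene0048723 from 17.3 ± 0.459 to 1.79 ± 0.420 RPKM (log2 change -3.23, SE 0.30, adjusted p = 7.35e-05) and Unigene0050351 from 9.20 ± 0.723 to 4.45 ± 0.191 RPKM (log2 change -1.03, SE 0.25, adjusted p = 0.00517). They are counted among the 66 genes but not among the 14 assimilation enzymes.

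The ammonium transporters went in opposite directions. Unigene0001143, similar to AMT1-2, a plasma membrane ammonium importer in Arabidopsis, had 21.4, 34.3 and 15.5 RPKM in NL and 88.0, 102 and 58.2 RPKM in L2. It was 3.48-fold higher in the mean (log2 change 1.83, SE 0.33, adjusted p = 0.00123; 0.00885 in edgeR and 0.0568 in DESeq2). Unigene0003379, annotated as AMT1-3, another importer of that kind, had 19.9, 16.6 and 30.3 RPKM in NL and 4.29, 4.42 and 2.69 RPKM in L2. It fell 5.86-fold (log2 change -2.51, SE 0.32, adjusted p = 2.73e-04). In NL neither of the pair prevailed, with Unigene0001143 at 51.8%, 67.4% and 33.9% of their sum, and in L2 that gene made 95.4%, 95.8% and 95.6%. The sum of both was 46.0 ± 4.82 RPKM in NL and 86.4 ± 23.1 RPKM in L2, a rise that turned into a log2 change of -0.15 with DESeq2's size factors.

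The NRT1/PTR family was the largest group, with 23 unigenes of 6 subfamilies. Its members carry nitrate, and some carry dipeptides or hormones. In limma 8 rose, 14 fell and 1 did not pass, while 63.0% of all listed genes rose and 36.3% fell. In edgeR 6 rose and 14 fell (background 38.6% and 36.6%), and in DESeq2 6 rose and 13 fell (25.1% and 36.4%). The directions differed with the length of the unigenes: of the 15 unigenes of at least 1000 nt 8 were higher in L2 and 7 lower, and of the 8 shorter ones 1 was higher and 7 lower. Among all listed genes 67.5% of the longer and 56.3% of the shorter unigenes were higher in L2. Unigenes assembled without a genome can be fragments of a transcript or copies of a gene, and how the reads were divided between them is not known.

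Subfamily 6 held the most abundant NPF unigene of L2. Unigene0052005 was annotated as NPF6.3, which in Arabidopsis is the nitrate transporter and sensor NRT1.1, and its unigene was 4677 nt long. It had 8.16, 13.1 and 2.68 RPKM in NL and 109, 134 and 144 RPKM in L2. All L2 libraries were above 100 RPKM, the mean was 16.1-fold higher, and the gene made 58.7% of the NPF sum in L2 against 5.92% in NL. The log2 change was 4.25 (SE 0.51, adjusted p = 1.98e-04), or 3.61 without NL replicate 3, and it passed in edgeR (7.31e-06) and DESeq2 (8.48e-11).

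A second unigene with the same annotation moved the other way. Unigene0036716 had 13.8, 20.8 and 11.5 RPKM in NL and 3.31, 2.00 and 2.30 RPKM in L2, 6.05-fold lower (log2 change -2.54, SE 0.34, adjusted p = 3.48e-04). Within the NPF6.3 pair, Unigene0052005 made 37.2%, 38.7% and 18.9% of the RPKM in NL and 97.0%, 98.5% and 98.4% in L2. The related Unigene0031424 (NPF6.1) had 2.74, 5.81 and 6.43 RPKM in NL and 0.886, 1.48 and 1.15 RPKM in L2 and fell 4.26-fold (adjusted p = 0.00646).

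Unlike directions within a subfamily were also seen in NPF1 and NPF3. NPF1.2 moves nitrate into the phloem of Arabidopsis leaves. Its unigene Unigene0051947 had 19.4, 18.8 and 36.6 RPKM in NL and 2.49, 2.74 and 3.67 RPKM in L2, 8.40-fold lower (log2 change -2.98, SE 0.33, adjusted p = 1.47e-04). Unigene0037224, with the same annotation, had 1.03, 0.969 and 1.24 RPKM in NL and 13.7, 12.0 and 34.5 RPKM in L2, 18.6-fold higher (log2 change 3.93, SE 0.46, adjusted p = 1.72e-04). A further NPF1.2, Unigene0036876, rose 5.25-fold from 2.66 ± 1.04 to 14.0 ± 3.72 RPKM (adjusted p = 8.77e-04). The summed RPKM of the 7 NPF1 unigenes was 42.5 ± 14.9 in NL and 41.6 ± 18.3 in L2, a difference well within the spread between libraries. In NPF3.1, Unigene0033491 had 27.0, 23.9 and 41.3 RPKM in NL and 4.72, 2.62 and 3.10 RPKM in L2, 8.83-fold lower (log2 change -3.11, SE 0.32, adjusted p = 1.01e-04). Unigene0038606, also NPF3.1, stood at 4.06 ± 0.875 RPKM in NL and 10.5 ± 3.78 RPKM in L2 (log2 change 1.31, adjusted p = 0.00884, but 0.174 in edgeR and 0.511 in DESeq2).

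Subfamily 5 held the gene that did not pass. Unigene0044571 (NPF5.10) had 2.10, 0.777 and 2.18 RPKM in NL and 2.32, 3.53 and 8.78 RPKM in L2. The lowest L2 library was only just above the highest NL library, and the log2 change of 1.38 (SE 0.64) had an adjusted p of 0.0635. Unigene0040086, with the same annotation, rose from 1.19, 1.02 and 1.12 RPKM to 21.3, 13.6 and 17.4 RPKM, 15.7-fold (log2 change 3.83, SE 0.33, adjusted p = 6.13e-05). Unigene0034300 (NPF5.4) was 22.4-fold higher in the mean on 4 reads in NL and 111 in L2 (adjusted p = 0.00169). Unigene0020306 (NPF5.5) overlapped between the stages, with 4.50, 4.05 and 1.42 RPKM in NL and 0.181, 1.64 and 0.703 RPKM in L2. Its log2 change of -2.07 (adjusted p = 0.0331) did not pass without NL replicate 1 or 2 or L2 replicate 1 or 3 (adjusted p 0.0765 to 0.112), was -1.38 without L2 replicate 1 and -2.70 without L2 replicate 2. The 3 NPF5.1 unigenes were all under 800 nt and had next to no reads in L2: Unigene0050616 had 33 reads in NL and 2 in L2 (ratio per total reads 23.1, 95% exact interval 5.91 to 199), Unigene0064787 had 37 and 2 (25.9, 6.69 to 222), and Unigene0057592 had 21 and none (at least 9.76-fold lower). Without L2 replicate 1, which held those reads, the log2 changes of -4.61 and -4.39 of the first and second became -5.46 and -5.13.

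In L2 no reads fell on 5 of the 23 NPF unigenes, and in NL none fell on Unigene0021413 (NPF5.10-like), which had 28 reads in L2 and was at least 6.78-fold higher there. Of the 5, Unigene0051949 (NPF1.2-like, 349 nt) was the clearest, with 10.7, 4.45 and 7.61 RPKM in NL on 37 reads, at least 16.9-fold lower in L2. Unigene0055352 (NPF1.2-like) had 21 reads in NL and was at least 8.97-fold lower, with a log2 change of -4.24 that became -3.49 without NL replicate 3. Unigene0066135 (NPF1.2-like) and Unigene0027876 (NPF7.3, with the symbol NPF7.1) had no reads in NL replicate 1 either, so that their stages overlapped at 0. Their 17 and 29 reads in NL came from NL replicates 2 and 3 (at least 7.60-fold and 12.9-fold lower). Unigene0027876 did not pass in DESeq2 (adjusted p = 0.0873), and neither gene passed in limma when any library other than NL replicate 1 was left out (adjusted p 0.0901 to 0.111). Without NL replicate 2, NL replicate 3 and NL replicate 1, the log2 change of Unigene0066135 (-3.43) was -2.77, -2.37 and -5.14, and that of Unigene0027876 (-3.82) was -3.10, -2.63 and -5.73.

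The remaining nitrate carriers were few. Unigene0001056 (NPF7.3, with the symbol NPF7.2) fell 4.04-fold from 4.55 ± 1.22 to 1.13 ± 0.336 RPKM (adjusted p = 0.00473), and Unigene0003661 (NPF8.1-like with the symbol NPF8.2, in Arabidopsis dipeptide transporters) fell 8.0-fold from 3.54 ± 0.665 to 0.442 ± 0.286 RPKM (adjusted p = 0.00193). Unigene0000762 (NPF1.1-like) stood at 1.42 ± 0.134 RPKM in NL and 4.63 ± 1.78 RPKM in L2 (adjusted p = 0.00927, but 0.121 in edgeR and 0.286 in DESeq2). Outside the family, Unigene0032446, a high affinity nitrate transporter similar to NRT2.5, had 12.4, 13.7 and 4.59 RPKM in NL and 1.49, 1.55 and 0.775 RPKM in L2. It fell 8.04-fold (log2 change -2.82, SE 0.53, adjusted p = 0.00165). Unigene0053603, annotated as a probable peptide/nitrate transporter and with the symbol ZIFL2, went from 1.21 ± 0.885 to 5.05 ± 1.46 RPKM (adjusted p = 0.00879, but 0.134 in edgeR and 0.273 in DESeq2). The summed RPKM of the NPF genes was 135 ± 22.7 in NL and 219 ± 37.2 in L2, and this rise turned into a log2 change of -0.39 with DESeq2's size factors and of -0.49 without Unigene0052005.

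**Figure D3:**
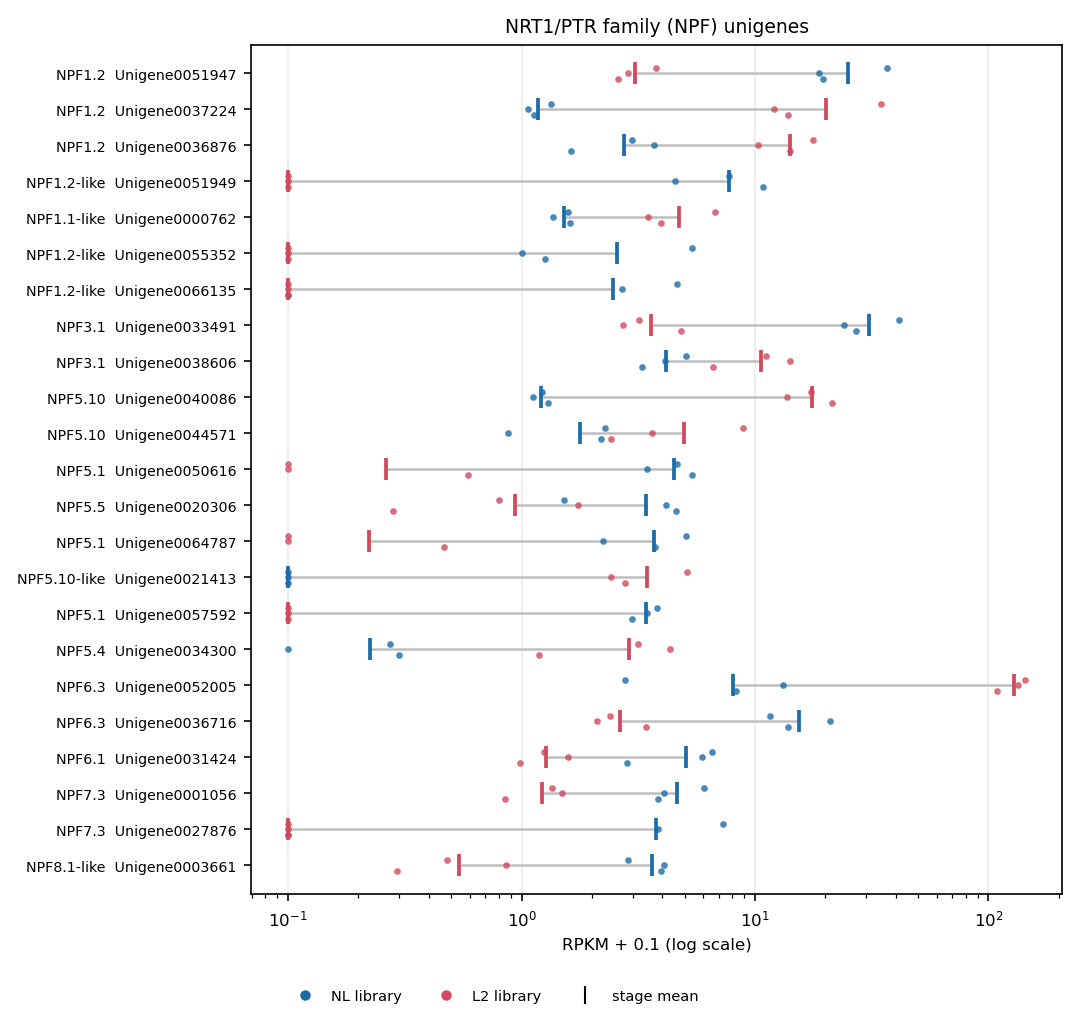
RPKM + 0.1 on a log axis for the 23 NRT1/PTR family unigenes, ordered by subfamily and then by mean level, with 1 point per library (NL blue, L2 red) and the stage means as ticks. Points at 0.1 are libraries without reads. Unigene0052005 lies far right of the other genes in L2, at a mean of 129 RPKM, while the other NPF6.3 unigene runs from 15.4 down to 2.54 RPKM.

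Amino acid transporters, 23 unigenes in all, were mostly higher in L2, while the most abundant of them were lower. In limma 16 rose and 7 fell, and NL and L2 libraries were fully apart for all 23 (background 97.6%). A share of 16 in 23 lies near the 63.0% of all listed genes that rose. In edgeR 13 rose (background 38.6%) and in DESeq2 10 (25.1%), with 7 falling in each (36.6% and 36.4%). The summed level was 960 ± 85.1 RPKM in NL and 646 ± 82.1 RPKM in L2. Without Unigene0043046 the other 22 genes summed to 260 ± 20.02 RPKM in NL and 434 ± 43.2 RPKM in L2. This log2 change of 0.74 became -0.33 with DESeq2's size factors.

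Amino acid permeases import amino acids at the plasma membrane. Unigene0043046, annotated as AAP3, had 745, 771 and 585 RPKM in NL and 194, 257 and 185 RPKM in L2. It fell 3.30-fold (log2 change -1.73, SE 0.22, adjusted p = 2.72e-04), from rank 31 of the listed genes in NL to rank 146 in L2. In NL it was below Unigene0048717 (nitrate reductase), and in L2 it was the most abundant of the 66 genes. Unigene0034685 (AAP6) had 3.0, 2.82 and 2.37 RPKM in NL and 36.8, 40.6 and 51.4 RPKM in L2, 15.7-fold higher (log2 change 3.92, SE 0.23, adjusted p = 3.45e-05). Its part in the sum of these genes for AAP3 and AAP6 was 0.401%, 0.364% and 0.404% in NL and 15.9%, 13.7% and 21.7% in L2. Unigene0038234, annotated as AAP3 with the symbol AAP2, rose 7.78-fold from 0.706, 1.66 and 1.52 RPKM to 9.70, 10.8 and 9.73 RPKM (adjusted p = 4.34e-04). Unigene0008337 (annotated as AAP4 with the symbol AAP2) had 1 read in NL and 43 in L2, a ratio of 30.7 per total reads (95% exact interval 5.22 to 1240), and its log2 change of 4.20 was 4.83 without NL replicate 3 and 3.57 without L2 replicate 3.

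All 3 lysine histidine transporter unigenes rose in limma (background 63.0%). The Arabidopsis proteins of this name take up a broad range of amino acids. Unigene0034641, annotated as LHT2 with the symbol LHT1, had 6.72, 17.1 and 4.71 RPKM in NL and 41.6, 61.9 and 39.9 RPKM in L2, 5.02-fold higher (log2 change 2.51, SE 0.45, adjusted p = 0.00127). Unigene0040633 (LHT-like 8) had 4.25, 5.45 and 3.99 RPKM in NL and 57.3, 30.8 and 27.1 RPKM in L2, 8.42-fold higher (log2 change 2.98, SE 0.32, adjusted p = 1.16e-04). Both passed in edgeR and DESeq2. Unigene0025710, also LHT-like 8, was 2.18-fold higher at 8.93 ± 1.94 RPKM in L2 (adjusted p = 0.00814), with adjusted p values of 0.515 in edgeR and 0.932 in DESeq2. The sum of the 3 genes was 18.2 ± 7.36 RPKM in NL and 95.1 ± 16.5 RPKM in L2.

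Among the cationic amino acid transporters, which carry arginine, lysine and related amino acids, the pair of abundant vacuolar members fell and the 4 weakly expressed members rose. Unigene0037538 (CAT4, vacuolar) had 82.5, 89.1 and 101 RPKM in NL and 32.0, 30.02 and 31.8 RPKM in L2, 2.91-fold lower (log2 change -1.53, SE 0.15, adjusted p = 9.30e-05). Unigene0033302 (CAT2, vacuolar) had 77.0, 73.9 and 99.1 RPKM in NL and 21.8, 27.0 and 27.4 RPKM in L2, 3.28-fold lower (log2 change -1.70, SE 0.19, adjusted p = 1.30e-04). Unigene0033125 (CAT8, vacuolar) rose 12.8-fold, from 0.409, 1.2 and 0.527 RPKM to 6.64, 12.8 and 7.97 RPKM (log2 change 3.57, SE 0.52, adjusted p = 5.05e-04).

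The 3 other rises of this group were less firm. Unigene0017669 (CAT5) had 7.40, 1.66 and 2.15 RPKM in L2 over a mean of 0.561 RPKM in NL, and its log2 change of 2.23 (adjusted p = 0.0108; 0.0547 in DESeq2) was 1.60 without L2 replicate 1. Unigene0028554 (CAT7-like) went from 2.48 ± 1.78 to 8.31 ± 3.25 RPKM (adjusted p = 0.0161), and did not pass without L2 replicate 2 or 3 (0.0691 and 0.0665), in edgeR (0.170) or in DESeq2 (0.350). Unigene0024862 (CAT7-like) had 2 reads in NL and 47 in L2, a ratio of 16.8 (95% exact interval 4.39 to 143). Its adjusted p was 0.00251 in limma and 0.0612 in DESeq2, and its log2 change of 3.22 was 3.88 without NL replicate 2.

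The other 10 amino acid transporters, 6 higher and 4 lower, included the carriers of the vacuole. Unigene0037797, similar to the vacuolar amino acid transporter 1 (AVT1, an importer of amino acids into the vacuole in yeast), had 1.69, 2.32 and 1.09 RPKM in NL and 29.9, 33.6 and 31.9 RPKM in L2. It rose 18.7-fold with little spread in L2 (log2 change 4.20, SE 0.32, adjusted p = 5.09e-05). Unigene0037723 (ANTL1) was the most abundant of the 10 in both stages, with 15.6, 19.1 and 25.2 RPKM in NL and 47.0, 100.4 and 63.3 RPKM in L2. It was 3.52-fold higher (log2 change 1.77, SE 0.31, adjusted p = 0.00107; 0.0631 in DESeq2). Unigene0031123, a transmembrane amino acid transporter of no closer annotation, rose 3.78-fold from 18.9, 14.0 and 11.7 RPKM to 57.5, 63.1 and 47.7 RPKM (adjusted p = 1.72e-04). Of the genes named after the sodium-coupled neutral amino acid transporters of animals, Unigene0039195 rose 5.94-fold (3.42 ± 0.402 to 20.3 ± 4.39 RPKM, adjusted p = 1.16e-04) and Unigene0006086 rose 3.93-fold (3.95 ± 0.785 to 15.5 ± 2.17 RPKM, adjusted p = 3.33e-04).

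The third of that name, Unigene0033803, had 4.83, 4.65 and 6.82 RPKM in NL and 3.43, 2.81 and 1.35 RPKM in L2. It was 2.15-fold lower (adjusted p = 0.0354), and the pass held only with all libraries or without L2 replicate 1, the adjusted p being 0.0533 to 0.107 without each of the others. A further 3 weak genes annotated as vacuolar carriers were lower in L2. Unigene0022748 (AVT1-like) had 47 reads in NL and 1 in L2 (ratio 65.9, 95% exact interval 11.3 to 2656). Its log2 change of -4.40 was -3.76 without NL replicate 1 and -5.00 without NL replicate 3. Unigene0003666 (AVT1-like) had 20 reads and 2 (ratio 14.0, 3.40 to 124), with a log2 change of -3.37, or -4.13 without L2 replicate 2. Unigene0022968, named after YPQ3, a vacuolar carrier of basic amino acids in yeast, fell 9.02-fold (log2 change -3.55, adjusted p = 0.0119). It did not pass without L2 replicate 2 or 3 (0.0567 and 0.0572), where the log2 change was -2.96, and was -4.71 without L2 replicate 1. Unigene0028928, a weaker AVT1 gene, stood at 1.72 ± 0.248 RPKM in NL and 6.29 ± 3.50 RPKM in L2 (adjusted p = 0.0150), but did not pass without L2 replicate 1 or 3 (0.0570 and 0.0575), in edgeR (0.109) or in DESeq2 (0.257).

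**Figure D4:**
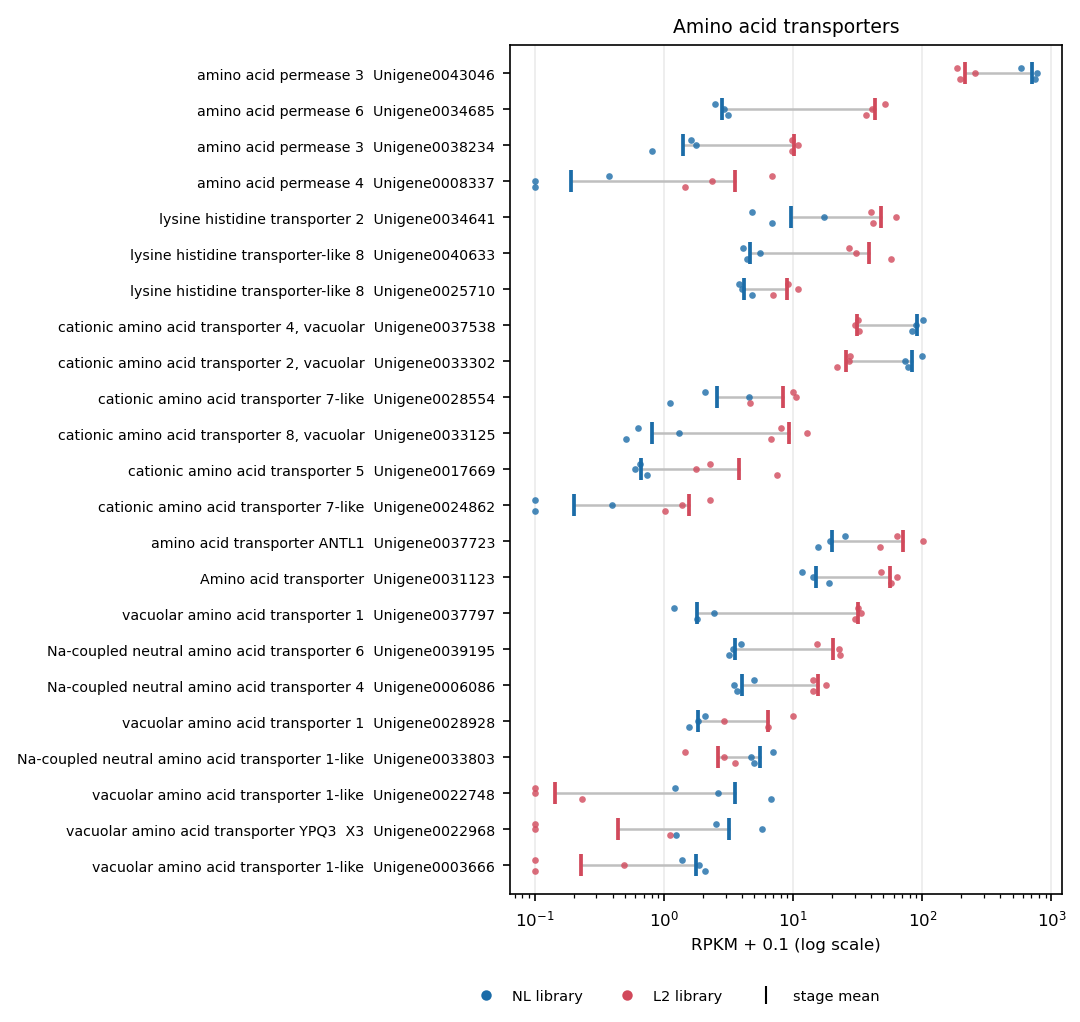
RPKM + 0.1 on a log axis for the 23 amino acid transporter unigenes, in the order permeases, lysine histidine transporters, cationic amino acid transporters and others, with 1 point per library (NL blue, L2 red) and the stage means as ticks. Unigene0043046 (AAP3) at 700.2 RPKM in NL and 212 RPKM in L2 is far above the rest, and most of the weaker genes lie higher in L2.

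Only 16 of the 66 genes carried a KEGG pathway in the table. Nitrogen metabolism held 21 listed genes, of which 12 belong to the 66 and 8 are carbonic anhydrases, and 6 of the 21 were higher in L2, 3 of them among the 66.

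Further genes of nitrogen metabolism, taken from a list of words outside the 66, numbered 39. In limma 26 rose and 12 fell (background 63.0% and 36.3%), and Unigene0026503, a urease accessory protein D whose stages overlapped, had an adjusted p of 0.0515. In edgeR 20 rose and 13 fell (background 38.6% and 36.6%), and in DESeq2 18 rose and 13 fell (25.1% and 36.4%).

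Aspartate aminotransferases, which form aspartate with the amino group of glutamate, showed 3 rises and 2 falls in limma (background 63.0% and 36.3%). The most abundant pair fell. In edgeR 2 of the rises passed (background 38.6%) and in DESeq2 1 (25.1%). Unigene0037236, a cytoplasmic form at 17.9 RPKM in NL and 37.9 RPKM in L2, went from a log2 change of 1.07 in limma to -0.0030 in DESeq2 (adjusted p = 0.993). Unigene0042805, a cytoplasmic form, had 266, 259 and 238 RPKM in NL and 37.7, 51.7 and 40.9 RPKM in L2 (log2 change -2.56, SE 0.17, adjusted p = 4.12e-05). Unigene0033758, the chloroplastic form, had 72.0, 76.0 and 71.5 RPKM in NL and 11.4, 14.6 and 13.3 RPKM in L2 (log2 change -2.48, SE 0.16, adjusted p = 4.03e-05). The bifunctional aspartate and glutamate/aspartate-prephenate aminotransferase Unigene0031344, which acts in the making of aromatic amino acids, was 2.88-fold higher (21.6, 16.6 and 17.1 RPKM against 61.1, 48.2 and 50.1 RPKM, adjusted p = 2.18e-04; 0.113 in DESeq2).

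Asparaginases, which release ammonium from asparagine, changed which gene was the most abundant. Unigene0036016 had 88.0, 88.4 and 92.8 RPKM in NL and 14.9, 21.9 and 26.6 RPKM in L2 (log2 change -2.12, SE 0.23, adjusted p = 1.21e-04). Unigene0021534, a partial L-asparaginase, had 0, 2.78 and 2.04 RPKM in NL and 47.7, 36.5 and 36.5 RPKM in L2. Its mean was 25.1-fold higher (adjusted p = 0.00243), with a log2 change of 5.56 that was 4.01 without NL replicate 1, 6.44 without NL replicate 2 and 6.22 without NL replicate 3. Unigene0021535 had 0.606, 3.2 and 1.69 RPKM in NL and 33.6, 21.4 and 22.2 RPKM in L2, 14.0-fold higher (log2 change 3.97, or 3.38 without NL replicate 1, adjusted p = 3.77e-04). Unigene0021534 (373 nt) and Unigene0021535 carry the same symbol, At3g16150, and whether they are parts of the same gene was not tested. The summed RPKM of the 4 unigenes annotated as asparaginase was 96.5 ± 2.56 in NL and 88.0 ± 8.18 in L2. They include Unigene0031270, which carries the symbol TASP1. Glutamate decarboxylase, which makes GABA from glutamate, had 2 reads in NL and 136 in L2 (Unigene0031044, ratio 48.5, 95% exact interval 13.2 to 405), and its log2 change of 4.77 was 5.37 without NL replicate 1.

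Of the genes for arginine and urea breakdown, Unigene0003657, an accessory protein that loads nickel into urease, fell 13.2-fold from 54.8, 61.0 and 72.8 RPKM to 3.23, 6.41 and 4.66 RPKM (log2 change -3.74, SE 0.27, adjusted p = 4.83e-05). Another accessory protein, Unigene0053435 (urease accessory protein F), rose 6.22-fold from 1.26, 2.61 and 0.914 RPKM to 8.25, 9.95 and 11.5 RPKM (adjusted p = 9.43e-04). Arginase (Unigene0051502) stood at 18.7, 21.4 and 17.8 RPKM in NL and 46.2, 41.7 and 30.1 RPKM in L2 (log2 change 1.01, adjusted p = 0.00246), but its log2 change was -0.033 in DESeq2 (adjusted p = 0.928), so it has no firm direction.

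Regulators of the nitrate response were also listed. A unigene annotated as NLP7 but with the symbol NLP6, both transcription factors of the nitrate response in Arabidopsis, had 20.5, 23.4 and 28.8 RPKM in NL and 7.09, 10.5 and 10.9 RPKM in L2 (Unigene0047937, log2 change -1.35, SE 0.25, adjusted p = 0.00135). A unigene annotated as NLP4, with the symbol NLP2, fell 3.54-fold from 9.32, 9.97 and 15.6 RPKM to 3.14, 3.84 and 2.88 RPKM (Unigene0045092, adjusted p = 0.00122). All 3 unigenes annotated as LBD37 (symbol LBD38 in the table), repressors of nitrate-responsive genes in Arabidopsis, rose in limma (background 63.0%). Of the 3, 2 passed in edgeR (38.6%) and in DESeq2 (25.1%). The most abundant of them, Unigene0041694, had 21.4, 14.8 and 8.0 RPKM in NL and 31.1, 41.8 and 25.8 RPKM in L2. Its pass (log2 change 1.24, adjusted p = 0.0116) was lost without L2 replicate 2 (0.0533), in edgeR (0.358) and in DESeq2 (0.835).

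Among other carriers, oligopeptide transporter OPT6 (Unigene0041361) fell 10.4-fold from 20.4, 23.2 and 19.1 RPKM to 2.91, 1.62 and 1.5 RPKM (adjusted p = 8.45e-05). The OPT4-like Unigene0026665 was higher in L2, where it had 78 reads against 6 in NL; its log2 change of 3.08 was 2.41 without NL replicate 2. Of 16 amino acid exporters and related carriers (WAT1-related proteins, GABA and proline transporters and a glutamine dumper), 13 rose and 3 fell in limma (background 63.0% and 36.3%). In edgeR 10 rose (background 38.6%) and in DESeq2 9 (25.1%). The 3 most abundant were WAT1-related genes, a family that includes amino acid and auxin exporters: Unigene0028245 fell from 20.1 to 8.54 RPKM (adjusted p = 0.00258), Unigene0051207 rose from 5.40 to 22.1 RPKM (adjusted p = 1.65e-04) and Unigene0031707 rose from 0.676 to 20.8 RPKM (adjusted p = 1.55e-04). The catalytic subunit of molybdopterin synthase, needed for the cofactor of nitrate reductase, had 19.9, 12.3 and 19.8 RPKM in NL and 9.40, 6.97 and 5.22 RPKM in L2 (Unigene0028511, log2 change -1.26, SE 0.31, adjusted p = 0.00511).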

How the data were processed

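RNA of tissue from the top of the stem around the thorn seat, by the paper's account with buds where present, was sequenced for NL and L2 (3 libraries each). The authors assembled the reads with Trinity, mapped them to the unigenes with Bowtie2, and deposited RPKM values per library and the mean read counts of each stage, which look like expected counts because a mean of 3 libraries need not be whole. The tool for counting, its use of strand and the authors' test are not given in the sources used here. The deposited table holds 11051 genes, kept by the authors at an FDR threshold of 0.05 and a log2 ratio of 1 or more in either direction. Its log2 ratio, p-value and FDR columns are the authors' own comparison and were not used. Genes outside the table were not analysed here. The labels give 1 sample per stage, and the 3 libraries were taken from the column names.

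Reads, unigene lengths and library totals were recovered from the deposited RPKM values and mean counts, and 100% of the 59302 nonzero values gave whole reads (tolerance 0.05). Log2(RPKM + 0.1) of the stages was compared with limma 3.58.1 (R 4.3.3), with a trend, two-sided, with Benjamini-Hochberg adjustment over all 11051 genes. Log2 changes are on this scale, whereas folds are ratios of mean RPKM, so they can differ for low genes in either direction. The added 0.1 RPKM shrinks such log2 changes, while single libraries without reads can make them larger than the fold, as for Unigene0021534 and Unigene0055510. Alternatives were edgeR 4.0.16 (quasi-likelihood, TMM or library totals) and DESeq2 1.42.0 on the recovered reads, pseudocounts of 1 and 0.01, a low-value filter (RPKM at or above 1 in 3 or more libraries), a replicate block, and leaving out each library. Folds against a stage without reads are lower bounds at 3 reads over the stage. For 1 to 3 reads the ratio of summed reads per total carries a 95% exact (Clopper-Pearson) interval, which covers counting error only. In simulated reads with 200 of 11051 genes changed 3-fold, limma recovered 58.5% of them, edgeR 71.5% and DESeq2 62.0%, with 3, 8 and 5 false calls. Since every listed gene of the real data had been called by the authors, the simulation did not test the scaling of the libraries.

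The text names every assimilation enzyme and ammonium transporter, and of each transporter group up to 8 members of highest mean RPKM, up to 2 of the largest rises and 2 of the largest falls, and every member that overlapped or did not pass. Of the other nitrogen genes up to 3 per group were named by mean RPKM. The remaining members of the groups, Unigene0026503 and Unigene0037236 were added after their values were seen. Members, lists and tests were chosen with earlier results of these data known. P-values set the difference between NL and L2 against the spread between libraries of a stage, for genes already called on these libraries. No sequence is printed, since none was given. Figures and tables used Python 3.11.15.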

Additional observations from a re-analysis of the deposited data

How the results depend on the processing

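Of the 66 genes, 44 kept their direction and their side of the threshold under each of the 13 alternatives that could be run on them, 22 changed a call and none changed direction. The filter on low values left out 5 of the 66, which have no value under it. The count of genes passing was 65, with 52 in DESeq2, 57 in edgeR with TMM factors and 57 to 61 when each library was left out. The count of rises was 31, with 19 in DESeq2, 23 in edgeR and 29 to 31 without each library, and that of falls was 34, with 27 to 30 without each library. In edgeR 8 rises lost their call, and in DESeq2 12 rises and 1 fall (Unigene0027876). The median log2 change of -1.09 became -2.14 with DESeq2's size factors and -1.19 to -0.88 without each library. It was 1.26 over genes with a mean of at least 1 RPKM in both stages. That choice leaves out genes because they fell to a low level in L2 or rose from a low level in NL. As given above, this median follows the split of directions and the edge of the authors' threshold, so its range does not measure a typical change. Outside the 66 genes, arginase (Unigene0051502) went from a log2 change of 1.01 to -0.033 in DESeq2, and aspartate aminotransferase Unigene0037236 from 1.07 to -0.0030.

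The log2 ratio of the summed RPKM of a group without its most abundant gene became -2.38 for nitrate reductase, -2.35 for nitrite reductase, -1.05 for folylpolyglutamate synthase, -3.32 for glutamate synthase, 2.79 for glutamate dehydrogenase and -0.86 for cationic amino acid transporters. It changed sign to 4.14 for glutamine synthetase, -2.55 for ammonium transporters, -0.49 for the NPF genes, 2.07 for the other nitrate transporters and 3.78 for amino acid permeases. For asparagine synthetase no value was possible, since the remaining gene had no reads in NL. With DESeq2's size factors, a setting chosen after seeing the data, every sum moved down: to -5.45, -4.09, -2.30, -3.17 and -3.68 for nitrate reductase, nitrite reductase, glutamine synthetase, folylpolyglutamate synthase and glutamate synthase, to 0.33 and 0.44 for glutamate dehydrogenase and asparagine synthetase, to -0.15, -0.39 and -1.90 for ammonium, NPF and other nitrate transporters, and to -2.46, 1.34, -2.25 and 0.71 for amino acid permeases, lysine histidine, cationic and other amino acid transporters.

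Libraries with the same number deviated together only weakly (correlations of 0.035, 0.023 and 0.060), below the 0.1 used here to treat the numbers as pairs, although each library correlated best with its own number. With the replicate block 65 genes passed, 32 higher and 33 lower. Depth limits genes of under about 1 RPKM, where 1 read is a large part of the value.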
